A study of Mus musculus with 2 samples.

Results

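The sarcomere and myofibre genes are a list of 41 mouse genes that skeletal muscle fibres use to contract, to keep their shape, to receive the nerve signal and to form by fusion. The list was chosen by gene symbol. All 41 genes were among the 26997 genes counted in the larger sequencing library, and 37 were among the 20830 genes counted in the smaller one. It holds 4 genes of the actin filament, 7 troponins, 5 myosin heavy chains, 3 myosin light chains, 7 genes of the Z-disc, the M-band and the thick filament, the intermediate filament gene Des, 4 subunits of the muscle acetylcholine receptor, 3 genes of fusion and the cell membrane, 3 sarcomere assembly factors and 4 genes of calcium release and energy supply.

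Muscle stem cells (MuSCs) rest beside the fibre until injury, then divide as myoblasts. Myoblasts that stop dividing switch on Myog, a transcription factor of terminal differentiation, and fuse into new fibres with the help of the membrane proteins myomaker and myomixer. In the sarcomere, myosin pulls on actin, troponin makes that pull depend on calcium, and titin and nebulin set the length of the filaments. Fibres hold these messages in large amounts, so a cell suspension made from muscle can also carry them outside the cells that transcribed them.

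The cells came from Pax7creERT2R26-eYFPfl/fl mice, C57BL6 by background, 3 months old and given tamoxifen at 20 mg/ml in corn oil for 5 days, so YFP marks cells in which the Pax7 promoter drove Cre and their descendants. YFP-positive cells were sorted from uninjured muscle (quiescent MuSCs) and from muscle at 72 hours after an injection of 1.2% barium chloride (activated MuSCs), and both were run together in 1 droplet capture. The droplets were divided into a 10% and a 90% aliquot, both read by Illumina at the 3′ ends of transcripts, and the 10% aliquot also by nanopore over whole transcripts. Neither table says from which muscle a cell came, so quiescent and activated cells are not separated by a label here.

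Illumina reads gave 39044129 UMIs (unique molecular identifiers, each counted as 1 captured RNA molecule) in 3001 barcodes for the 90% aliquot and 6772259 in 1991 for the 10% aliquot. The 2 tables are not independent. They shared 634 barcodes, among them all 178 barcodes of 3000 to 15000 UMIs and all 79 barcodes of at least 20000 UMIs in the 10% table. Of the shared barcodes with at least 3000 UMIs there, 268 of 269 were closer in expression to themselves in the other table than to any other of the 269. Values below are from the 90% aliquot unless stated, and the main ones are repeated without the shared barcodes. Left out in that setting were only the 354 barcodes with at least 0.5 times as many UMIs in the 10% table as in the 90% table. The other barcodes found in both tables stayed in. With 1 capture there is no replicate and no test, and the 95% intervals cover counting error only.

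Barcodes were compared by depth and by Myog, which is not a member. The shallow class held 1391 barcodes of 3000 to 15000 UMIs, with a median of 4742. The deep Myog-0 class held 460 barcodes of at least 20000 UMIs without a Myog UMI, with a median of 46608. The deep Myog-positive class held 96 barcodes of at least 20000 UMIs with 2 or more Myog UMIs, with a median of 48362. Another 50 deep barcodes held 1 Myog UMI and entered neither class. Levels are counts per 1000000 UMIs of the class (CPM). A gene was called higher or lower at a 2-fold difference in CPM where both classes together held at least 20 of its UMIs. Of the 8 MuSC markers examined, at least 1 was present in 93.5% of shallow, 99.6% of deep Myog-0 and 97.9% of deep Myog-positive barcodes. Immune markers summed to 256 CPM in shallow barcodes, in 46 of them, against 4.17 and 2.94 CPM in the deep classes.

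Among deep barcodes, most of the contractile genes were higher where Myog was present. Of 31 members with enough UMIs, 25 were higher in Myog-positive than in Myog-0 barcodes, none was lower and 6 were neither, and the median ratio was 5.15. With few Myog-0 UMIs, Actc1, Myh3, Myh1, Cav3, Klhl41 and Ckm could reach the minimum only by being called higher. Their calls were thus fixed by the minimum, and both the count and the median include them. Of all 13729 genes with enough UMIs, 3.58% were higher and 3.93% lower, with a median ratio of 1.02. Summed over the 41 members, the level was 2264 CPM (95% interval 2222 to 2307) in Myog-positive and 963 CPM (950 to 976) in Myog-0 barcodes. Per barcode the members ran from 444 to 34064 CPM with a median of 1554 in the first class and from 63.6 to 4385 CPM with a median of 842 in the second, so the classes overlapped. Without the shared barcodes 25 of 30 members were higher and none lower, against 3.61% and 3.72% of all genes. With only the 60 Myog-positive barcodes that lacked the fusion gene Mymx, 11 of 24 members were higher and none lower, against 2.90% and 5.44% of all genes.

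**Figure D1:**
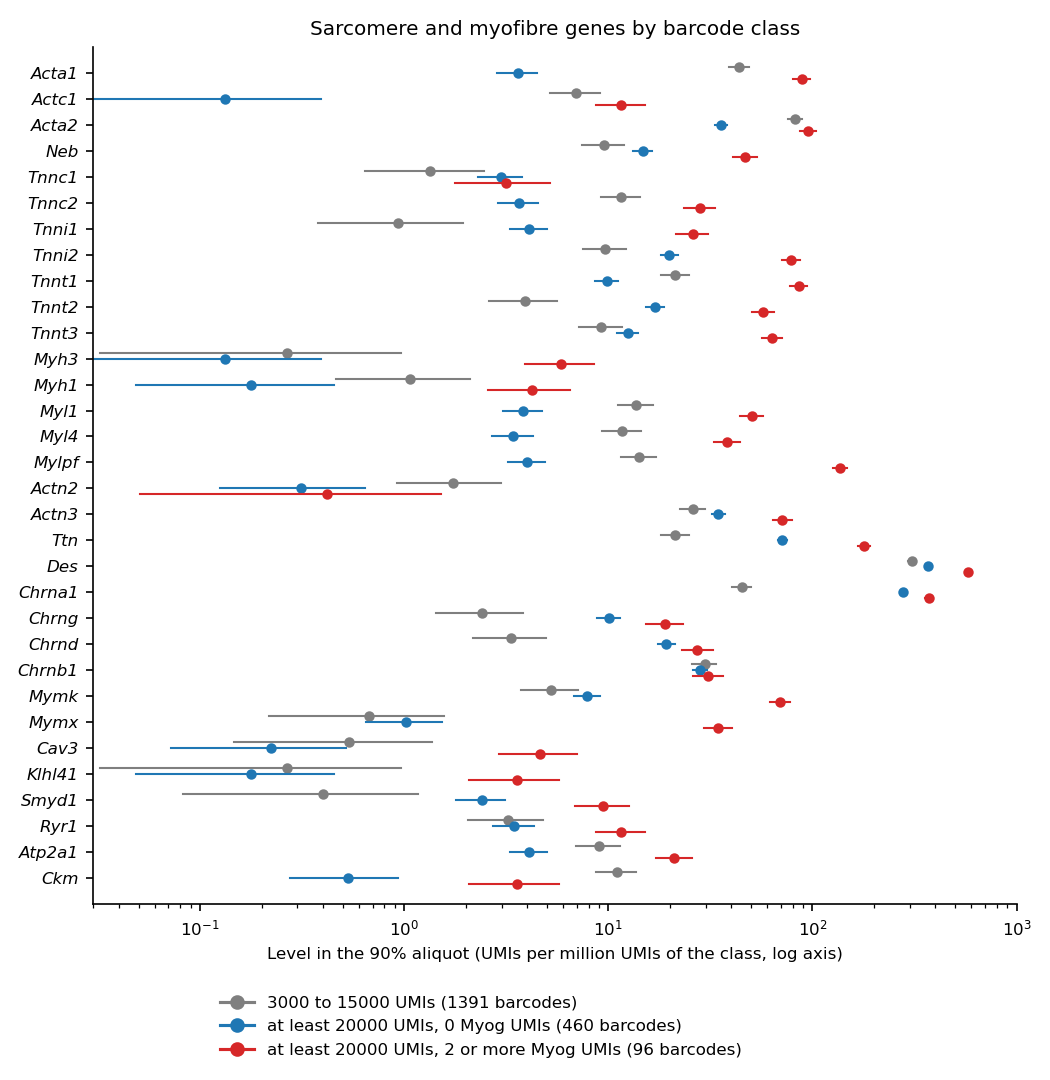
Level (CPM, log axis) of each member with at least 20 UMIs over the 3 classes, in shallow barcodes (3000 to 15000 UMIs), deep Myog-0 and deep Myog-positive barcodes (at least 20000 UMIs) of the 90% aliquot, with 95% counting intervals. The Myog-positive level lies above the Myog-0 level by 2-fold or more for 25 members, from Actn3 to Actc1, while Des and the acetylcholine receptor genes lie less than 2-fold apart in the deep classes.

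Myog and its relatives bind the E-box, a short DNA motif written CANNTG, of which CAGCTG is the form searched here. The promoters shown are those of members called higher (Mylpf, Cav3, Klhl41) and of 2 receptor subunits that were not (Chrna1, Chrng), chosen because each holds CAGCTG. The stretches are from RefSeq on GRCm38.p6, 5′ to 3′ on the strand of the gene, with CAGCTG in capitals. They lie at chr7:127211448-127211607 (+) for Mylpf, chr6:112459345-112459504 (+) for Cav3, chr2:69669960-69670119 (+) for Klhl41, chr2:73580339-73580498 (−) for Chrna1 and chr1:87205651-87205810 (+) for Chrng.
Mylpf: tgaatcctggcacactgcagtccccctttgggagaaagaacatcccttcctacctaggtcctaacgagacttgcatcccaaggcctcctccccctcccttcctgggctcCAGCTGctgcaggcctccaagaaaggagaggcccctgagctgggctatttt
Cav3: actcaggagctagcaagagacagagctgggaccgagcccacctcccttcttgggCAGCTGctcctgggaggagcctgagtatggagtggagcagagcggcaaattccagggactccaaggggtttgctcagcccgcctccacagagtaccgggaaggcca
Klhl41: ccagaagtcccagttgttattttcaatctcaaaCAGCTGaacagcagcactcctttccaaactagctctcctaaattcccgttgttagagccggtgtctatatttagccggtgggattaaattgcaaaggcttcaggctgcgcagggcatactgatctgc
Chrna1: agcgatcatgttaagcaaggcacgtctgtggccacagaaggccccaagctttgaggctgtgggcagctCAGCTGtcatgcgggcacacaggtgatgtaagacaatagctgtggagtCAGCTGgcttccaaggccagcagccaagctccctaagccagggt
Chrng: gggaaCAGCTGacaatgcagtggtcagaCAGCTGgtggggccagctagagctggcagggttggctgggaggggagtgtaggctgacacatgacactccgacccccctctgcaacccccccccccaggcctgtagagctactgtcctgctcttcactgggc

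Counted from the start site, the first base of the motif lay at -51 in Mylpf, -106 in Cav3, -127 in Klhl41, -92 and -44 in Chrna1 and -155 and -132 in Chrng. Of the 33 members with a promoter of 300 bases, 17 (51.5%) held CAGCTG, against 16.3% of all 32817 promoters. Any CANNTG, which includes CAGCTG, was in 29 members (87.9%) against 72.3% of all promoters, so the broad motif separates promoters little. The motif was in 10 of the 19 members called higher that have a promoter and in 3 of the 5 called neither. A match describes letters only and is not a measured binding site.

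The actins showed the widest spread. Acta1, the main actin of adult skeletal fibres (chr8:123891769-123894751 on GRCm38), stood at 88.5 CPM (80.2 to 97.4) in Myog-positive, 3.59 CPM (2.85 to 4.47) in Myog-0 and 43.7 CPM (39.0 to 48.7) in shallow barcodes. The Myog-positive level was 24.6-fold the Myog-0 level (19.4 to 31.6), but a single barcode held 251 of the 421 UMIs, and the ratio was 15.9 with the top barcode of each class left out. Without the shared barcodes the ratio was 31.7. With the Myog-positive barcodes that held Mymx left out, 9 Acta1 UMIs remained in 60 barcodes and the ratio turned to 0.828. Only 19 of the 96 Myog-positive barcodes held any Acta1.

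Actc1, the cardiac actin that embryonic and regenerating fibres also use, was at 11.6 CPM in Myog-positive and 6.96 CPM in shallow barcodes. In Myog-0 barcodes it had 3 UMIs, 0.133 CPM, a ratio of 86.8 (28.2 to 434). Its 55 UMIs in the Myog-positive class came from 7 barcodes, so the high level belongs to few of them. Neb, which encodes the thin filament ruler nebulin, was at 46.7, 14.8 and 9.51 CPM in Myog-positive, Myog-0 and shallow barcodes, a ratio of 3.16 (2.65 to 3.75) between the deep classes.

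Acta2, the smooth muscle actin that myoblasts also transcribe, was at 95, 35.8 and 82.0 CPM in the same order, 2.66-fold higher (2.36 to 2.98) with Myog. It was the only actin found in many barcodes, 44 of 96 Myog-positive and 172 of 460 Myog-0. The sum of the smooth muscle and pericyte markers had the same order of classes, but Myh11 and Cnn1 did not. The 8 markers summed to 15.8 CPM in Myog-positive, 2.84 in Myog-0 and 12.3 in shallow barcodes, and in single barcodes to between 0 and 1085, 606 and 3798 CPM. Myh11, the defining smooth muscle myosin, had 1, 9 and 0 UMIs, Cnn1 had 0, 3 and 2, and Rgs5 made up 63 of the 75 marker UMIs in the Myog-positive class. A barcode with 2 or more of the markers was found in 0 of 96, 4 of 460 and 0 of 1391 cases, and 1 of those 4 held 101 of the Acta2 UMIs of its class. The part of such cells in the Acta2 level was not tested.

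Of the troponins, 6 of 7 were higher with Myog. Together they stood at 342 CPM (326 to 359) in Myog-positive and 69.8 CPM (66.4 to 73.3) in Myog-0 barcodes, and at 57.9 CPM in shallow ones. The tropomyosin-binding subunits were the most abundant together. Tnnt1, the slow form, was at 85.6, 9.81 and 21.3 CPM in Myog-positive, Myog-0 and shallow barcodes, a ratio of 8.72 (7.39 to 10.3) between the deep classes. Tnnt3, the fast form, was at 63.5, 12.4 and 9.24 CPM, a ratio of 5.11 (4.33 to 6.03). Tnnt2, the cardiac and embryonic form, was at 57.4, 16.9 and 3.88 CPM, a ratio of 3.39 (2.89 to 3.98).

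Slow and fast forms thus appeared side by side in the Myog-positive class. Among the inhibitory subunits, the fast Tnni2 was at 78.8, 19.9 and 9.64 CPM, a ratio of 3.96 (3.44 to 4.55), and the slow Tnni1 at 25.9, 4.08 and 0.938 CPM, a ratio of 6.33 (4.79 to 8.39). Among the calcium-binding subunits, the fast Tnnc2 was at 28.2, 3.64 and 11.5 CPM, a ratio of 7.74 (5.84 to 10.3). Its exons overlap 592 exon bases of the cell cycle gene Ube2c on the other strand, and whether the counting used strand is not given in the sources used here. The slow and cardiac Tnnc1 was the troponin that was neither higher nor lower, at 3.15, 2.97 and 1.34 CPM, a ratio of 1.06 (0.563 to 1.88).

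Myosin heavy chains, the motors that define fibre types, were almost absent from every class. The 5 genes summed to 11.6 CPM in Myog-positive, 0.399 CPM in Myog-0 and 2.95 CPM in shallow barcodes. Embryonic Myh3 led with 28 UMIs in 11 Myog-positive barcodes, 5.89 CPM, against 3 UMIs in Myog-0 barcodes, a ratio of 44.2 (13.7 to 227). Fast Myh1 had 20 UMIs in 7 Myog-positive barcodes and 4 in Myog-0 barcodes, a ratio of 23.7 (7.93 to 95.3). Neonatal Myh8 and slow Myh7 each had 2 UMIs in a single Myog-positive barcode and none in the Myog-0 class, where the floor of 3 UMIs equals 0.133 CPM.

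Fast Myh4 differed from these in where its few UMIs lay, with 3 in Myog-positive, 2 in Myog-0 and 11 in shallow barcodes. Myh1, Myh4, Myh3 and Myh8 are close paralogs in 1 cluster on chromosome 11, so counts this low could be divided between them. With so few UMIs, the depth of these libraries does not allow fibre types to be assigned.

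The myosin light chains were more abundant than the heavy chains, at 225 CPM in the Myog-positive class, and 3 of 3 were higher with Myog. Mylpf, the regulatory light chain of fast fibres (chr7:127208890-127214298), was at 136 CPM (126 to 147) in Myog-positive, 3.99 CPM (3.21 to 4.91) in Myog-0 and 14.1 CPM in shallow barcodes. The ratio between the deep classes was 34.2 (27.4 to 43.1), and 36.4 without the shared barcodes. The fast essential light chain Myl1 was at 50.4, 3.82 and 13.7 CPM, a ratio of 13.2 (10.3 to 17.1), and the embryonic and atrial Myl4 at 38.3, 3.42 and 11.7 CPM, a ratio of 11.2 (8.53 to 14.8). With the barcodes that held Mymx left out, the ratios were 5.05 for Mylpf, 1.91 for Myl1 and 1.26 for Myl4.

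Mylpf was also unevenly held. It was found in 38 of 96 Myog-positive barcodes, and 9 of these held 537 of its 649 UMIs. In the Myog-0 class 51 of 460 barcodes had it and none held 10 or more. Thinned to 3000 UMIs each, 14.5% of Myog-positive, 1.25% of Myog-0 and 2.55% of shallow barcodes would hold a Mylpf UMI.

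In the Z-disc, M-band and thick filament group, 2 genes carried almost all of the signal. Ttn, which encodes the giant spring titin, was at 179, 71.2 and 21.3 CPM in Myog-positive, Myog-0 and shallow barcodes, a ratio of 2.51 (2.31 to 2.73), and was present in 90 of 96 and 349 of 460 deep barcodes. Actn3, the fast-fibre actinin of the Z-disc, was at 71.3, 34.6 and 25.8 CPM, a ratio of 2.06 (1.81 to 2.34) that fell to 1.92 with the top barcode of each class left out. Unlike the light chains, both were thus widespread in deep barcodes with and without Myog.

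The other 5 genes of that group had too few UMIs to be called. Mybph, a thick filament protein of young fibres, had 18 UMIs in 4 Myog-positive barcodes and none in the Myog-0 or shallow classes. Its ratio was 28.4 with the Myog-0 class set to a floor of 3 UMIs, which is an assumed count and not a bound. Myoz2, a Z-disc linker, had 4 UMIs in 2 Myog-positive barcodes and none in the Myog-0 class, a ratio of 6.32 against the same floor. Actn2, the Z-disc actinin of all fibre types, had 2, 7 and 13 UMIs in Myog-positive, Myog-0 and shallow barcodes. Myom1, of the M-band, had 2, 5 and 5, and Tcap, which caps titin, had 1, 3 and 15.

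Des, which encodes the intermediate filament desmin and is active already in MuSCs, was the most abundant member. It stood at 578 CPM (556 to 600) in Myog-positive, 367 CPM (360 to 375) in Myog-0 and 307 CPM (295 to 320) in shallow barcodes. The ratio of 1.57 (1.51 to 1.64) between the deep classes stayed below 2, although its counting interval lies above 1. It was found in all 96 Myog-positive barcodes, in 455 of 460 Myog-0 barcodes and in 857 of 1391 shallow barcodes.

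The subunits of the muscle acetylcholine receptor formed the group least tied to Myog, 4 of 4 being neither higher nor lower between the deep classes. Chrna1, the subunit that binds acetylcholine, was at 373 CPM in Myog-positive and 277 CPM in Myog-0 barcodes, a ratio of 1.35 (1.28 to 1.42), and was present in 95 of 96 and 453 of 460. It was far lower in shallow barcodes, at 45.1 CPM (40.4 to 50.2). Chrnd was at 27.3, 19.2 and 3.35 CPM, and its neighbour Chrng, the fetal subunit, at 18.9, 10.0 and 2.41 CPM, in Myog-positive, Myog-0 and shallow barcodes. Their ratios between the deep classes were 1.42 (1.16 to 1.73) and 1.89 (1.46 to 2.42). Chrnb1 departed from the other 3 in being level across all classes, at 30.9, 28.0 and 29.6 CPM. Without the shared barcodes the ratio for Chrng was 2.13, past the 2-fold limit.

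The fusion genes were higher with Myog in 3 of 3 cases. Mymx, which encodes myomixer (chr17:45600971-45602102), was at 34.5 CPM (29.4 to 40.2) in Myog-positive, 1.02 CPM (0.647 to 1.53) in Myog-0 and 0.670 CPM (0.217 to 1.56) in shallow barcodes, a ratio of 33.8 (21.8 to 54.8) between the deep classes. Mymk, which encodes myomaker (chr2:27061636-27072179), was at 69.4, 7.90 and 5.22 CPM, a ratio of 8.78 (7.30 to 10.6). Mymx was found in 36 of 96 Myog-positive and 17 of 460 Myog-0 barcodes, and Mymk in 59 and 91. Both genes stood on the list of differentiating myoblast markers as well. Cav3, the caveolin of the muscle cell membrane, was at 4.62, 0.222 and 0.536 CPM, with 22, 5 and 4 UMIs, a ratio of 20.8 (7.70 to 70.5).

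Of the assembly factors, Smyd1, a methyltransferase that helps to fold and place myosin, was at 9.46, 2.40 and 0.402 CPM in Myog-positive, Myog-0 and shallow barcodes, a ratio of 3.95 (2.60 to 5.97). Klhl41, which stabilizes nebulin, was at 3.57, 0.178 and 0.268 CPM, a ratio of 20.1 (6.57 to 82.2) that rests on 17 and 4 UMIs. The myosin chaperone Unc45b had 6 UMIs in Myog-positive, none in Myog-0 and 12 in shallow barcodes. Against a floor of 3 UMIs for Myog-0 its ratio was 9.47, from too few UMIs to be called. The low counts of this group leave Smyd1 as its best measured member.

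Genes of calcium handling and energy supply were low in all classes. Atp2a1, the calcium pump of the fast fibre's reticulum, was at 21, 4.08 and 8.97 CPM in Myog-positive, Myog-0 and shallow barcodes, a ratio of 5.15 (3.84 to 6.91). Its exons overlap 763 exon bases of Rabep2 on the other strand. Ryr1, the calcium release channel, was at 11.6, 3.46 and 3.21 CPM, a ratio of 3.34 (2.32 to 4.78). Cacna1s, the voltage sensor that opens Ryr1, had 4 UMIs in Myog-positive, none in Myog-0 and 2 in shallow barcodes. Against a floor of 3 UMIs for Myog-0 its ratio was 6.32, from too few UMIs to be called.

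Ckm, the muscle creatine kinase that buffers ATP in adult fibres, was the 1 member of the 26 with at least 100 UMIs whose level was highest in the shallow class. It stood at 11 CPM (8.73 to 13.6) in shallow, 3.57 CPM in Myog-positive and 0.533 CPM in Myog-0 barcodes. Between the deep classes the ratio was 6.71 (3.02 to 15.4), from 17 and 12 UMIs. Of the members with fewer UMIs, 5 were also highest in the shallow class, Myh4, Actn2, Myom1, Tcap and Unc45b, with 12 to 22 UMIs each over the 3 classes.

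Within the deep barcodes the contractile genes did not follow Myog evenly. Binned by 0, 1, 2 to 4, 5 to 19 and 20 or more Myog UMIs (460, 50, 37, 33 and 26 barcodes), the myosin light chains summed to 11.2, 28.6, 24.8, 41.9 and 774 CPM. The troponins summed to 69.8, 109, 141, 182 and 863 CPM. The largest step for both groups was therefore into the last bin. The fusion genes stood at 9.14, 26.7, 34.5, 53.3 and 294 CPM, and the acetylcholine receptor at 334, 389, 386, 409 and 601 CPM.

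Single genes differed in where the step came. Acta1 was at 3.59, 2.71, 4.86, 19.8 and 307 CPM over the same bins, and Mylpf at 3.99, 19.7, 18.3, 23.3 and 467 CPM. For Acta1 the last 2 values rest mostly on 1 barcode each. A barcode with 6 Myog UMIs held 32 Acta1 UMIs, and a barcode with 127 Myog UMIs held 251. Mymk was already at 24.8 CPM with 1 Myog UMI, while Mymx was at 0.774 CPM there and reached 20.4 and 101 CPM in the last 2 bins. Des moved from 367 to 932 CPM and Chrna1 from 277 to 493 CPM, so both were already high without Myog.

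**Figure D2:**
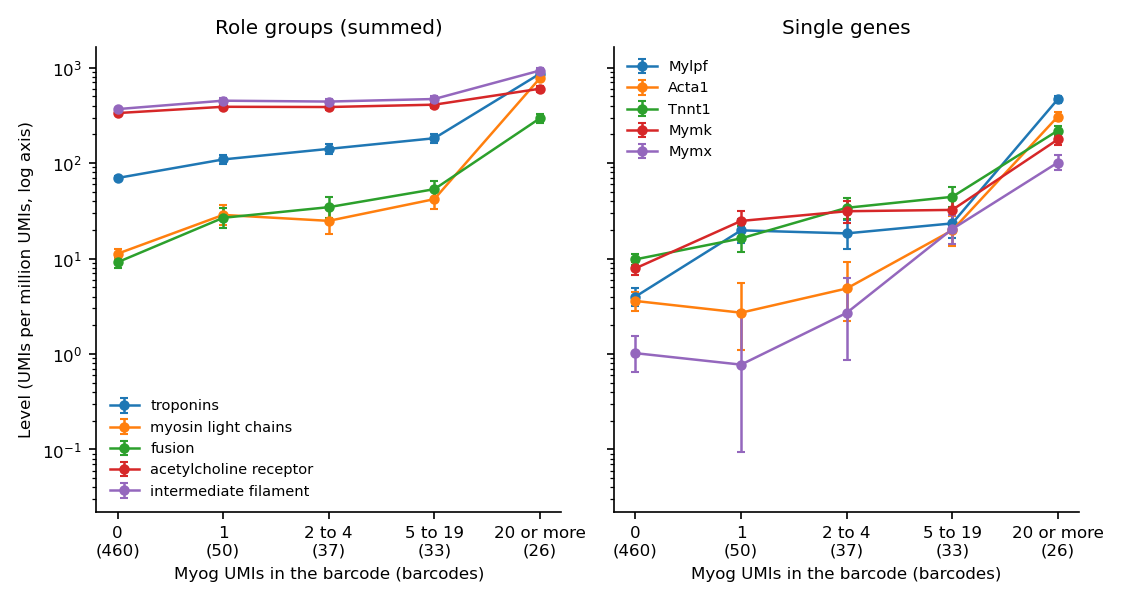
Level (CPM, log axis) of member groups and single members in deep barcodes (at least 20000 UMIs) binned by their Myog UMIs, with 95% counting intervals. The myosin light chains and Acta1 step up mainly in the bin of 20 or more Myog UMIs, while Des goes from 367 to 932 CPM and the receptor genes from 334 to 601 CPM between the first and the last bin.

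The contractile genes were concentrated in Myog-positive barcodes that also held both fusion genes. Acta1, Actc1, Ckm, Mylpf, Myl1, Myl4, Tnnc2, Tnni1, Tnnt3 and Atp2a1 were summed for this comparison, a set of 10 chosen with their values known. In the 27 barcodes with both Mymk and Mymx they reached 1314 CPM (1254 to 1377), with a median of 327 CPM per barcode. In the 32 with Mymk alone they stood at 127 CPM (111 to 146), and in the 28 with neither at 61.5 CPM (49.2 to 76.0). The 9 with Mymx alone stood at 382 CPM, of which a single barcode at 4775 CPM made up most, their median being 23.3 CPM.

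Depth did not separate these barcodes, since the median UMI counts were 49517, 48026, 42996 and 49699 in the order both, Mymk alone, Mymx alone and neither. Myog itself did, with medians of 40, 4.5, 14 and 4 UMIs, so fusion genes and the amount of Myog cannot be told apart here. Of the 27 barcodes with both genes, 14 held 20 or more UMIs of the 10 genes, against 2 of 32 with Mymk alone, 1 of 9 with Mymx alone and 0 of 28 with neither. In the Myog-0 class 7 of 460 barcodes had both fusion genes, with 100 CPM of the 10 genes, and 359 had neither, with 34.3 CPM. Without the shared barcodes, the 26 Myog-positive barcodes with both genes stood at 1372 CPM and the 25 with neither at 66.2 CPM. The order differed elsewhere. In the 10% aliquot the 1 deep Myog-positive barcode with both genes stood at 52.4 CPM and the 3 with neither at 53.8 CPM. The 3 with Mymk alone stood at 728 CPM there, the highest of them at 4609 CPM. No shallow barcode of the 90% aliquot held both genes, and the 15 with Mymk alone stood at 1683 CPM.

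The barcode with the most of these UMIs held 695 of them, 21880 CPM, with 127 Myog, 40 Mymk, 7 Mymx and 0 Pax7 UMIs. The next held 311, with 170 Myog, 23 Mymk, 29 Mymx and 0 Pax7 UMIs. Both thus held Myog and both fusion genes and no UMI of the stem cell factor Pax7.

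**Figure D3:**
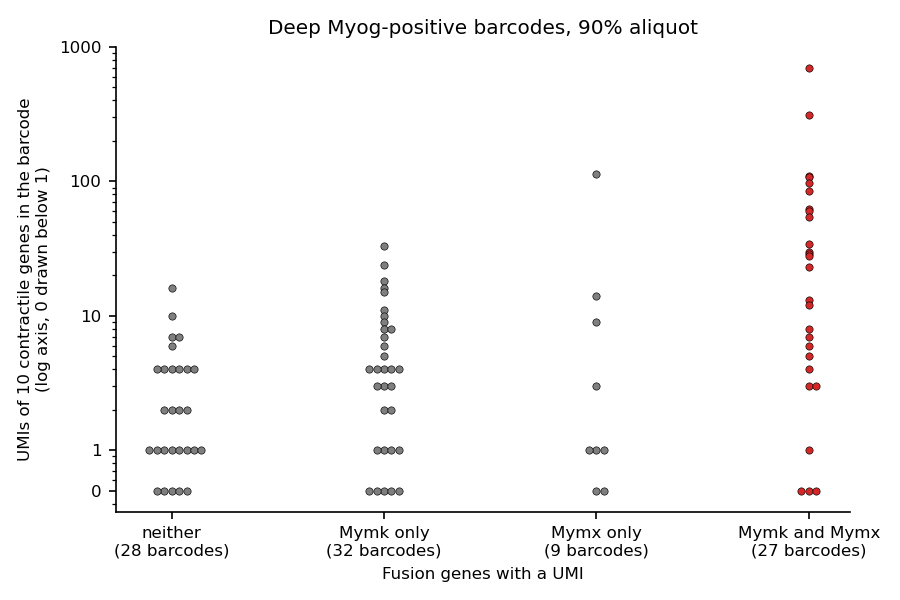
UMIs of the 10 contractile genes (log axis, 0 drawn below 1) in each deep Myog-positive barcode of the 90% aliquot, divided by whether it held UMIs of both Mymk and Mymx, of 1 of them or of neither. Each point is a barcode. Of the 27 barcodes with both genes, 14 hold 20 or more UMIs and the highest holds 695, while 0 of the 28 with neither hold 20 or more.

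Shallow barcodes held a different mixture. Of 28 members with enough UMIs, 11 were higher in shallow than in deep Myog-0 barcodes (Acta1, Actc1, Acta2, Tnnc2, Tnnt1, Myl1, Myl4, Mylpf, Actn2, Atp2a1 and Ckm), 9 were lower (Tnnc1, Tnni1, Tnni2, Tnnt2, Ttn, Chrna1, Chrng, Chrnd and Smyd1) and 8 were neither. Over all 14461 genes, 19.8% were higher and 26.6% lower, so many genes differ between these depths. The adult fibre genes Acta1 and Ckm were 12.1-fold (9.50 to 15.7) and 20.6-fold (11.2 to 41.5) higher in shallow barcodes. Chrna1 and Ttn, by contrast, were at 0.163 (0.146 to 0.182) and 0.299 (0.253 to 0.352) of their deep level.

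A few shallow barcodes were themselves Myog-positive and carried part of this. Of the 1391, 25 held Myog, and these held 140 of the 326 Acta1 UMIs, 48 of the 52 Actc1 UMIs, 26 of the 39 Mymk UMIs and 29 of the 67 Atp2a1 UMIs. Their share was small for Ckm, 1 of 82, and for Mylpf, 3 of 105. With the 25 left out, 7 of 27 members were higher (Acta1, Tnnc2, Myl1, Myl4, Mylpf, Actn2 and Ckm), against 19.8% of all genes, and 11 were lower, against 27.4%. Acta1 was then 7.13-fold and Ckm 21-fold the deep level.

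Shares of barcodes with a UMI depend on depth, so they were also computed with every barcode thinned to 3000 UMIs. Of the 28 members, 25 were found in a larger share of deep Myog-0 than of shallow barcodes before thinning, against 96.3% of all genes, and 17 after it, against 61.3%. The members as a list were thus near the genes in general, and single members differed. Acta1 was in 8.34% of shallow and 6.96% of deep Myog-0 barcodes as deposited and in 6.13% and 0.823% thinned. Ckm was in 4.10% and 2.61%, and 2.77% and 0.203% thinned. Chrna1 kept the opposite order, with 11.2% and 98.5% as deposited and 7.16% and 52.1% thinned.

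The number of UMIs per barcode was also compared between the depth classes. These classes can differ in the kinds of cells they hold, so depth and cell type cannot be told apart in the ratios. Deep Myog-0 barcodes held 9.13 times as many UMIs as the shallow class on average, and the median gene 10.4 times as many per barcode. Set against shallow barcodes without Myog, Acta1 held 0.176 UMIs per deep and 0.136 per shallow barcode, a ratio of 1.29 (0.984 to 1.69). Of its 81 UMIs in deep barcodes, 44 lay in 2 barcodes, so this ratio depends on them and its interval does not cover that. Ckm held 0.0261 and 0.0593, a ratio of 0.440 (0.218 to 0.811). With Actn2 at 1.60 (0.540 to 4.31), these were the 3 of 27 members with a ratio under 2, against 7.84% of all genes. Without the shared barcodes 2 of 26 were under 2, Acta1 and Ckm, against 7.62% of all genes.

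Every other member with enough UMIs had a ratio of at least 2. Tnnc2 had a ratio of 2.90 (2.11 to 3.98), Tnnt1 4.65 (3.75 to 5.79) and Acta2 4.86 (4.34 to 5.45), all below the depth ratio. Des, at 11.1 (10.5 to 11.6), lay near the depth ratio. Ttn at 33.5 (28.2 to 40.1), Mymk at 40.7 (23.2 to 77.9), Chrna1 at 66.6 (59.0 to 75.4) and Smyd1 at 80.2 (21.1 to 679) exceeded it by far.

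The same order was seen across finer bins of Myog-0 barcodes. From barcodes under 1000 UMIs to groups that begin at 1000, 3000, 6000, above 15000, 20000 and 50000 UMIs, Acta1 held 0.0156, 0.0463, 0.127, 0.163, 0.0909, 0.125 and 0.249 UMIs per barcode. It thus lay between 0.0909 and 0.249 from 3000 UMIs upward, where mean depth went from 4354 to 64813. Ckm held 0.0518, 0.0816 and 0.121 in the groups from 3000, 6000 and above 15000 UMIs, and 0.0295 and 0.0212 in the last 2. Chrna1 moved from 0.0782 to 17.8 and Des from 1.23 to 22.6 UMIs per barcode over the same bins. The group just above 15000 UMIs holds only 33 barcodes.

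**Figure D4:**
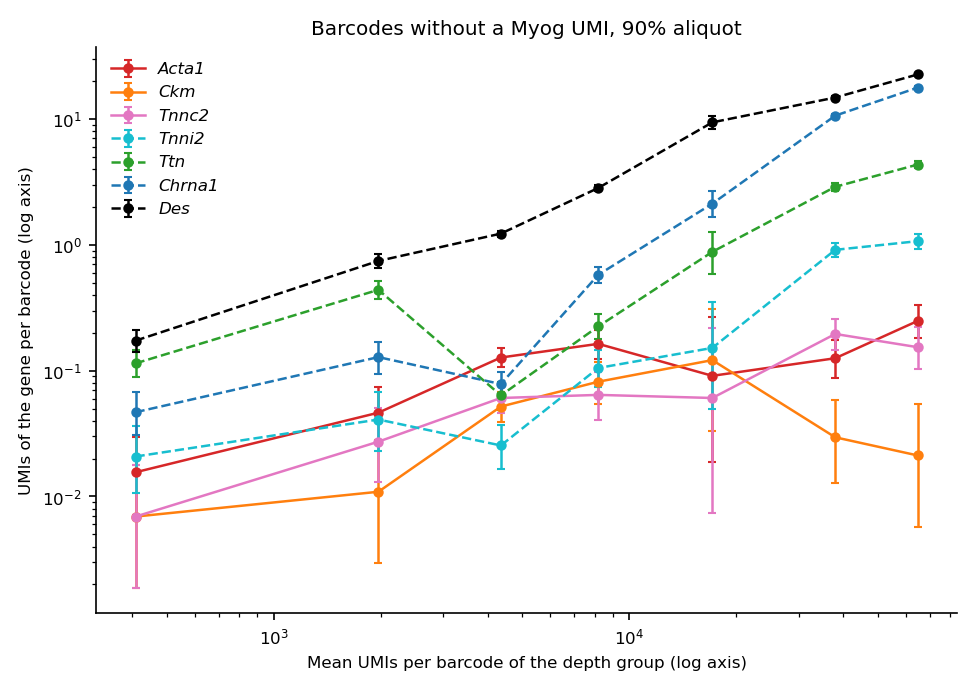
Mean UMIs per barcode (log axis) of members in Myog-0 barcodes of the 90% aliquot against the mean depth of each bin (log axis), with 95% counting intervals. From 3000 UMIs upward Acta1 lies between 0.0909 and 0.249 and Ckm between 0.0212 and 0.121, its lowest values in the 2 deepest groups, while Des and Chrna1 rise with depth. In the 2 deepest groups together, 2 barcodes hold 44 of the 81 Acta1 UMIs.

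The way the UMIs were spread over barcodes also differed between classes. In shallow barcodes without Myog, 106 barcodes held the 186 Acta1 UMIs, 72 of them exactly 1 UMI and 1 of them 10 or more. In deep Myog-0 barcodes 2 barcodes with 10 or more held 44 of the 81 Acta1 UMIs. In the whole shallow class 8 barcodes with 10 or more held 148 of 326 UMIs, and 7 of these 8 also held Myog, while none held Mymx. In the deep Myog-positive class 6 such barcodes held 382 of 421 UMIs, and all 6 held Mymx. Ckm showed no barcode with 10 or more UMIs in any class, and in the Myog-0 class its 12 UMIs lay in 12 barcodes.

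The fibre genes did not keep a constant ratio to each other. Per Acta1 UMI there were 0.435 Ckm UMIs (0.331 to 0.568) in shallow barcodes without Myog, 0.148 (0.0735 to 0.273) in deep Myog-0 and 0.0404 (0.0233 to 0.0654) in deep Myog-positive barcodes. For Mylpf the values were 0.548 (0.426 to 0.702), 1.11 (0.814 to 1.52) and 1.54 (1.36 to 1.75), so the order of the classes was the reverse. In the 10% aliquot Ckm kept its order, at 0.548, 0.200 and 0.0357, but Mylpf was at 0.355, 0.960 and 0.5. Other fibre genes followed neither order and had their highest ratio in deep Myog-0 barcodes. In the same order of classes, Tnnt3 stood at 0.355, 3.46 and 0.717, Atp2a1 at 0.204, 1.14 and 0.238, Myl1 at 0.473, 1.06 and 0.570 and Tnnc2 at 0.452, 1.01 and 0.318 per Acta1 UMI. The Acta1 UMIs behind these ratios rest on few barcodes. In deep Myog-0 barcodes 2 of them held 44 of 81, and in the Myog-positive class 1 held 251 of 421. The counting intervals do not cover this, and the ratios without these barcodes were not computed. Whether fibre RNA outside cells supplied any of these UMIs was not tested.

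Barcodes under 1000 UMIs served as a comparison for what the capture holds outside well-filled barcodes. There were 581 of them, with 238203 UMIs, a mitochondrial share of 15% and a members' level of 1411 CPM (1264 to 1570). They were not uniform, since Ttn stood at 294 CPM and Des at 441 CPM in them while Tnni1, Tnnc1 and Myl4 had no UMI, which allows up to 12.6 CPM. Of the 32 members with at least 20 UMIs over the 3 classes, 14 had a level there of at least 0.5 times their highest class level (Acta2, Neb, Tnnc2, Tnni2, Myh3, Myh1, Ttn, Des, Chrng, Chrnd, Chrnb1, Ryr1, Atp2a1 and Ckm). The same was true of 47.3% of all 14845 genes placed this way, so this count is near that of genes in general. Another 14 were below that and at least 2-fold higher in Myog-positive barcodes than in both other classes (Acta1, Tnni1, Tnnt1, Tnnt2, Tnnt3, Myl1, Myl4, Mylpf, Actn3, Mymk, Mymx, Cav3, Klhl41 and Smyd1), against 1.37% of all genes.

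Of the rest, Actc1, Tnnc1, Actn2 and Chrna1 met neither description and 9 had under 20 UMIs over the 3 classes. Many of these placements rest on few UMIs in the low barcodes, 1 each for Myh3 and Myh1, 10 for Acta1 and 4 for Ckm. Cav3 and Klhl41 reached 20 UMIs over the 3 classes only through their Myog-positive UMIs. Acta1 was just below the limit at 0.474 and Tnnc2 just above it at 0.596, and at a limit of 0.25 the first group held 24 members and the second 6. In the 10% aliquot the groups largely exchanged members. Of the 24 placed there, 15 fell in the first group, against 50.2% of all genes, and 8 of these were also in it in the 90% aliquot. The other 7 (Acta1, Tnnt1, Tnnt3, Myl1, Myl4, Mylpf and Actn3) came from the second group. That group held 7, against 2.44% of all genes, of which Tnni1, Tnnt2, Mymk and Smyd1 were the 4 placed there in both aliquots. The names in these groups therefore depend on the aliquot.

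The 10% aliquot, whose shallow and deep barcodes are all in the 90% table, gave the same direction for most members with less depth. Of 22 members with enough UMIs, 13 were higher in its 9 Myog-positive than in its 67 Myog-0 barcodes, and none was lower, while 6.25% of all genes were higher and 9.05% lower. Mymk was 16.8-fold, Tnni1 48.6-fold and Smyd1 6.24-fold higher. With only 14, 5 and 13 UMIs in the Myog-0 class, these genes could reach the minimum only by being called higher. The same was true of Myl4, with 12 UMIs in that class. Leaving out the top barcode of each class took Acta1 from 8.26-fold to 0.943, Tnnt2 from 2.30 to 0.423 and Atp2a1 from 3.85 to 0.797, so these rest on a single barcode. Ttn at 1.93, Actn3 at 0.657 and Ryr1 at 0.776 were not higher there. In UMIs per barcode, deep Myog-0 over shallow Myog-0, 2 of 21 members were under 2 (Myl4 and Ckm), against 5.83% of all genes. Ckm again held fewer per deep than per shallow barcode, at 0.773 (0.223 to 2.18), whereas Acta1 held 2.12 times as many (1.20 to 3.71).

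Long reads of the 10% aliquot showed how the members' transcripts end. The isoform table holds 203 isoforms of 33 members, and Myh3, Myh8, Myh7, Myh4, Tnnc1, Myoz2, Tcap and Cacna1s are not listed in it. Whether a UMI ended within 100 bases of a reference 3′ end of Gencode vM21 was read from the position of its isoform. All UMIs did so for Acta1 (422), Tnni2 (202), Myl1 (184), Tnnt2 (181), Mymk (179), Ckm (117), Mylpf (99) and Mymx (19). By the paper, isoforms with similar junctions and ends within 100 bases of a reference transcript were merged with it by default. These shares therefore describe the isoforms to which UMIs were assigned, not where each read ended. For Chrna1 and Chrng most UMIs ended elsewhere, as did 38.3% of those of Des and 46.2% of those of Acta2. The last 30 bases before these other ends are shown from Gencode vM21 transcripts (GRCm38), 5′ to 3′ on the strand of the gene, with the polyadenylation hexamer AATAAA in capitals.
Des at 75367713: ggacagaaacaatAATAAAgagacaagcac
Chrna1 at 73565801: ttttctttcctttAATAAAtataattgtac
Chrna1 at 73565923: accctttgaagtaAATAAAagtgagccctc
Acta2 at 34241526: ttttaaaAATAAAtcagacatgtgctaccc
Chrng at 87211632: gagaagatagagaAATAAAgagacagaggg

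Of the 8476 Des UMIs, 61.7% (60.6 to 62.7) ended at the reference end, chr1:75368579, and all others at 75367713, 866 bases upstream. The shares were 61.3% in shallow, 62.6% in deep Myog-0 and 61.3% in deep Myog-positive barcodes, with overlapping intervals. The leading isoform was the reference transcript Des-201. Of the 4288 Chrna1 UMIs, 1.24% (0.927 to 1.61) ended at a reference end, 90.0% at 73565801 and 8.77% at 73565923, both on chromosome 2. The most used Chrna1 end thus lies 2586 bases before the nearest annotated one, and it took 90.3%, 90.9% and 87.1% of UMIs in shallow, deep Myog-0 and deep Myog-positive barcodes. The leading Chrna1 isoform, which has no reference name, took 76.2% (74.4 to 77.9) in Myog-0 and 63.1% (58.6 to 67.3) in Myog-positive barcodes. Of the 166 Chrng UMIs none ended at a reference end, and 78.9% ended at 87211632, 1062 bases before it.

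For Acta2 (1745 UMIs), 53.8% (51.4 to 56.1) ended at the reference end and 43.4% at 34241526 on chromosome 19. The reference end took 44.6% (38.6 to 50.8) in shallow, 57.1% (53.2 to 61.0) in deep Myog-0 and 57.7% (52.8 to 62.6) in Myog-positive barcodes. Actn3 (606 UMIs) and Chrnb1 (668 UMIs) ended at a reference end in 92.7% and 96.6%. Chrnb1 stood out by its number of isoforms, 23, of which the reference transcript took 31.7% (28.2 to 35.4) of UMIs. That share was 14.4% (7.92 to 23.4) in shallow against 40.5% (34.4 to 46.8) in deep Myog-0 barcodes.

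Ttn ended away from its reference ends in 83.6% of 1082 UMIs, and in like shares in every class (82.8% shallow, 81.0% Myog-0, 84.8% Myog-positive). Its 41 isoforms had no dominant one, the leading one taking 12.5% (10.6 to 14.6). No hexamer was found before the ends that could be read, those of at least 10 UMIs inside a reference transcript. The end at 76857605, with 63 UMIs, lay outside them and was not read. Of the 23 ends read, 16 were followed by at least 10 A in 20 bases, while others, such as 76847390 with 6 A, were not. The stretch is shown for 3 of the most used ends as the next 20 bases of Ttn-203 with A in capitals.
Ttn after 76968398: AgAtAAgAAAAgAAActgAA
Ttn after 76841602: AgAAAAgAAgAAAAtccctg
Ttn after 76944724: AAgAAAActAAAgAtgAgct

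The first holds 13 A and the other 2 hold 11 each, after ends with 147, 76 and 46 UMIs. Of 23 distinct Ttn ends with at least 10 UMIs inside a reference transcript, 0 had AATAAA or ATTAAA in the 30 bases before them, where 1.60% of all 30-base windows of the members' transcripts do. The next 20 bases held a median of 11 A, against 6 over all such windows of Ttn, and 16 of 23 held at least 10, against 6.27% of windows. Neb ended at a reference end in 13.1% of 290 UMIs, and together with Ttn 1 of 29 ends had a hexamer and 20 were followed by at least 10 A. The other members had 12 such ends, of which 6 had a hexamer, and a median of 5.5 A after them. Of the 41 reference ends read, 26 had a hexamer. The long-read counts of Ttn and Neb therefore come mostly from molecules assigned to isoforms that end away from the annotated ends. Whether the same holds for their short-read UMIs was not tested.

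**Figure D5:**
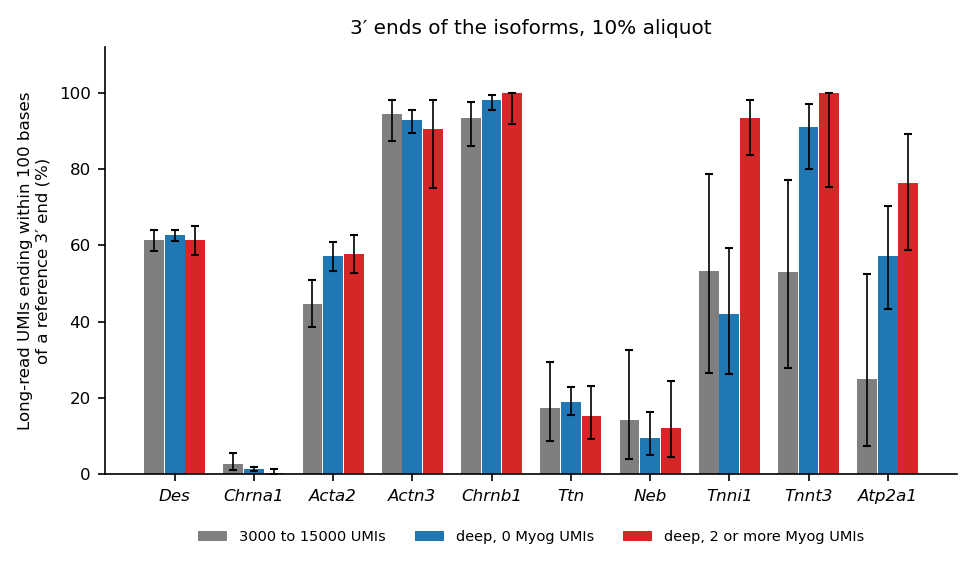
Share of long-read UMIs (percent) that ended within 100 bases of a reference 3′ end, by member and barcode class of the 10% aliquot, with exact 95% intervals. The end is that of the isoform to which a UMI was assigned. Des lies between 61.3% and 62.6% and Chrna1 at 2.64% or less in every class, while Tnni1 lies at 42.1% in deep Myog-0 and 93.3% in deep Myog-positive barcodes.

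Of the 22 members with at least 10 UMIs in 2 or more classes, 4 had intervals that did not overlap between classes, Acta2, Tnni1, Tnnt3 and Atp2a1. The share over all genes was not computed, so this count cannot be set against genes in general. Tnni1 ended at a reference end in 56 of 60 UMIs in deep Myog-positive barcodes, 93.3% (83.8 to 98.2), against 16 of 38 in Myog-0 barcodes, 42.1% (26.3 to 59.2), and 8 of 15 in shallow ones, 53.3% (26.6 to 78.7). Tnnt3 did so in 13 of 13 UMIs in Myog-positive, 90.9% (80.0 to 97.0) in Myog-0 and 52.9% (27.8 to 77) in shallow barcodes. Atp2a1 did so in 26 of 34 UMIs, 76.5% (58.8 to 89.3), in Myog-positive, 57.1% (43.2 to 70.3) in Myog-0 and 25% (7.27 to 52.4) in shallow barcodes. The Myog-positive class of this aliquot holds only 9 barcodes, so these shares come from few cells.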

How the data were processed

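The authors deposited UMI counts per gene for each aliquot (short reads, scPipe) and UMI counts per isoform for the 10% aliquot (long reads, FLAMES), on mm10, without normalization. The submitters' processing notes also name Cell Ranger 1.3 and minimap2 2.17. The deposited isoform structures were not used, since they hold 23522 of the 68065 isoform names of the count table. The gene tables hold 0 columns that could not be tied to a sample.

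Here the counts were summed over barcode classes and scaled to CPM, with exact Poisson intervals for levels and exact binomial (Clopper-Pearson) intervals for shares and ratios. A gene was called at a fold of 2 with at least 20 UMIs over both classes, and a class at 0 took 3 counts as its floor. Thinned shares are expected values of drawing 3000 UMIs per barcode. With 1 sample per aliquot no test was run. The members, the lists and the set of 10 contractile genes were chosen with earlier results of these data known.

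Values were planned for members with at least 100 UMIs over the 3 classes and for the 12 with the largest ratio between the deep classes, for the 6 other fibre genes with the largest ratio, and for isoforms of the 6 members with the most long-read UMIs. Members outside that rule are given by their UMIs. Gene symbols and positions are from Gencode vM21 (GRCm38) and promoters from RefSeq (GRCm38.p6). Exons of 14 members overlap those of another gene on the other strand. Scrublet in scanpy 1.11.5 called 3 of the 2420 barcodes of at least 1000 UMIs doublets (0.124%), none of them deep, and all were kept. Computations used Python 3.11.15 with numpy 2.4.6, scipy 1.17.1 and pandas 2.3.3, and the functions were tested on simulated data. Alternatives were other minimums, folds and limits, means over barcodes, leaving out top or shared barcodes, and the 10% aliquot.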

Additional observations from a re-analysis of the deposited data

How the results depend on the processing

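No paired analysis was possible because each aliquot is 1 library of the same capture, with no replicates to pair or to leave out. The 25 members higher with Myog became 13 of 22 in the 10% aliquot and 11 of 24 with the Myog-positive barcodes that hold Mymx left out, where Acta1 turned to 0.828. Actn3 (0.657) and Ryr1 (0.776) turned in the 10% aliquot, where Acta1, Tnnt2 and Atp2a1 also turned (0.943, 0.423 and 0.797) without the top barcode of each class, and Tnnc2, with too few UMIs to be called, had 0 UMIs in Myog-positive and 16 in Myog-0 barcodes. The 11 members higher in shallow than in deep Myog-0 barcodes, against 19.8% of all genes, became 18 with no minimum and 4 at a fold of 4. For these 2 settings the share over all genes was not computed. Without Myog-holding shallow barcodes the 11 became 7, against 19.8% of all genes. In the 10% aliquot they became 3, against 16.6% of all genes, and Myl1 turned to 0.548 there. The summed level of the members in the Myog-positive class (2264 CPM) was 2521 as a mean over barcodes, 2050 without the top barcode, 2348 without shared barcodes and 1730 in the 10% aliquot. The Myog-0 level (963 CPM) was 990.3 and 835.9, and the shallow level (714 CPM) 644 and 579, as a mean over barcodes and in the 10% aliquot. The 14 members with a low-barcode level near their highest became 24 at a limit of 0.25 of the highest, and the 14 high with Myog became 6 there and 7 in the 10% aliquot, 4 of them the same genes. At the limit of 0.25 the share over all genes was not computed. The median share of the leading isoform, 54.9%, became 100% over the 10 genes with reference-named isoforms alone, a value fixed by construction since 8 of them have a single such isoform. The 12 other fibre genes higher with Myog became 3 in the 10% aliquot, where 6.25% of all genes were higher. Where a smaller number of members had enough UMIs, the construction lowers the count; other causes were not tested. Myosin heavy chains, assembly factors and Ckm are limited by depth, with under 100 UMIs in every class. Leaving out shared, Myog-holding or Mymx-holding barcodes and the use of the 10% aliquot were alternatives chosen after the data had been seen.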

Other observations

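A wider list of 61 other fibre genes followed Myog less evenly. Of 29 with at least 20 UMIs over the deep classes, 12 were higher, 1 was lower (Cox6a2) and 16 were neither, against 3.58% higher and 3.93% lower of all genes. The largest ratio was that of Lmod3, which nucleates thin filaments, with 25 UMIs in Myog-positive and 3 in Myog-0 barcodes, 39.5-fold (12 to 204). With so few Myog-0 UMIs, Lmod3 could reach the minimum only by being called higher. Synpo2l, a Z-disc protein, followed at 11.4-fold (7.02 to 18.9), and Pgam2, the muscle phosphoglycerate mutase, at 8.01-fold (5.39 to 12). The glycogen phosphorylase Pygm was 4.04-fold (2.37 to 6.83), the sarcoglycan Sgca 3.58-fold (2.27 to 5.60) and Tmem182 3.47-fold (1.44 to 8.09) higher. Abundant genes of the list such as Eno3 (1.07), Ankrd1 (1.03) and Rapsn (1.05), which clusters the acetylcholine receptor, did not reach 2-fold.

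Other promoter motifs were also counted on both strands. Of the 33 members with a promoter, 6 (18.2%) held a MEF2 site against 3.19% of all promoters, 4 (12.1%) a CArG box against 1.63%, and 11 (33.3%) TATAAA against 13.6%. These are matches of letters, with no measurement of binding.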
